A study of Mus musculus with 6 samples.

Results

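The genes described here are p53 (Trp53), its regulators and genes that p53 activates directly, measured in hematopoietic stem and progenitor cells with and without the gene Tifab. The members were chosen by name from a list of 35 symbols. A gene was kept where it had a probe set annotated to that symbol alone. This held for 33 of 35 symbols, out of 22180 genes in all, and each of the 33 had 1 such probe set. Trp53 itself and the entry Tap63 had no such probe set and were not analysed here. The symbol Trp63, the p53 relative from which the TAp63 isoforms are made, is given with the wider pathway below.

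The cells were LSK cells, sorted from bone marrow as lacking lineage markers and carrying Sca1 and cKit, the marrow fraction that contains stem cells and multipotent progenitors. They came from mice that had been given Tifab+/+ (WT) or Tifab-/- (KO) donor marrow, with 3 arrays and 3 mice for each genotype. Both groups share the transplant itself: the labels describe Boy/J recipients that received 7 Gy and, 3 hours later, 4.75 Gy before the donor cells were injected, and they give 3 months as an age. The labels do not say whether the sorted cells were also selected by a donor marker, how long after transplantation they were taken, or which part of Tifab is deleted. The MoGene 2.0 ST arrays give 1 log2 value for each probe set, and values of different probe sets cannot be set against each other as amounts of RNA.

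p53 is a transcription factor that is held at a low level in unstressed cells, because Mdm2 marks it for degradation and Mdm4 holds back its activity. DNA damage and other stresses release it, and it then switches on genes that stop the cell cycle, repair DNA or trigger cell death, along with Mdm2 itself, which closes a feedback loop. In blood stem cells the pathway is known for its part in quiescence and for the loss of these cells after irradiation, and it is active in bone marrow failure and in the anemia of del(5q) myelodysplasia. Target gene RNA is a common readout of p53 activity, since the protein is controlled largely after transcription. The comparison of the genotypes shows whether that readout differed in cells lacking Tifab.

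The DNA to which p53 binds consists of a pair of 10-base half-sites, separated by a gap of 0 to 13 bases. This p53 half-site was searched for on both strands of the RefSeq promoter windows of GRCm38.p6, which run from 250 bases before to 50 bases after an annotated start. Of the 33 genes, 26 had a window. The genes Perp, Pmaip1, Rrm2b, Tnfrsf10b, Trp53inp1, Xpc and Zmat3 had no window and were not searched. A window with a half-site was found for 9 of 26 genes (34.6%), against 9.55% of the 27025 genes in the promoter table. A pair of half-sites, with at most 1 base off the consensus over the pair, was found for 4 of 26 genes (15.4%), against 1.24% of all genes in the table. Since the members were chosen by name as p53 genes, the higher shares are no independent evidence of a link to p53. The 4 genes with a pair are printed as sequence context, found with no use of the array values. Each is written 5′ to 3′ on the strand of its gene, with the half-sites in capitals. Pairs that share a half-site overlap in Cdkn1a and in Gtse1.
Cdkn1a, chr17:29090896-29090957, plus strand: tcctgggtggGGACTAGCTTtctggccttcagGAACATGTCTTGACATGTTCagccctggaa
Ccng1, chr11:40755452-40755491, minus strand: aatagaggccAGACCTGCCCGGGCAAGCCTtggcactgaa
Polk, chr13:96519388-96519428, minus strand: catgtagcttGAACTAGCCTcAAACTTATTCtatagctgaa
Gtse1, chr15:85859945-85859964, plus strand: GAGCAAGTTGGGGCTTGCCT
Gtse1, chr15:85859955-85859975, plus strand: GGGCTTGCCTcTGACTTGCCT
The Cdkn1a stretch lies 83 to 22 bases before the more distal of its 2 annotated starts, which is 2790 bases from the other. The Ccng1 stretch lies 205 to 166 bases before the start and the Polk stretch 241 to 201 bases before one of its starts. The first Gtse1 pair begins 1 base before the start. A match is a description of the letters and not evidence of binding, and no match covers only these windows, so sites farther away or inside introns are not seen.

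No shift of the p53 genes as a group was seen between the genotypes. Of the 33 genes, 17 were higher and 16 lower in the KO arrays, with a median log2 difference of 0.01 and a mean of -0.01, beside a median of 0.00 for all genes. Here and below a difference is the mean of the 3 KO arrays minus the mean of the 3 WT arrays on the log2 scale. The sizes were ordinary too: the median size of a difference, whatever its sign, was 0.17 over the 33 genes and 0.16 over all genes. None of the 33 reached 1.5-fold in either direction, a size that 3.37% of all genes reached. In limma, with Benjamini-Hochberg adjustment over the 22180 genes, 0 of the 33 passed an adjusted p under 0.05 (background 0.0%, since 0 genes of all passed), and the lowest adjusted p of a member was 0.356. At an unadjusted p under 0.05, 2 of 33 (6.06%) were counted, Sertad1 and Cdkn1a, both lower in the KO arrays, where 10.3% of all genes (2274) were counted. By direction that is 2 lower, against a background of 5.51%, and 0 higher, against 4.74%. The share for p53 genes was thus no higher than the share for genes at large.

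**Figure D1:**
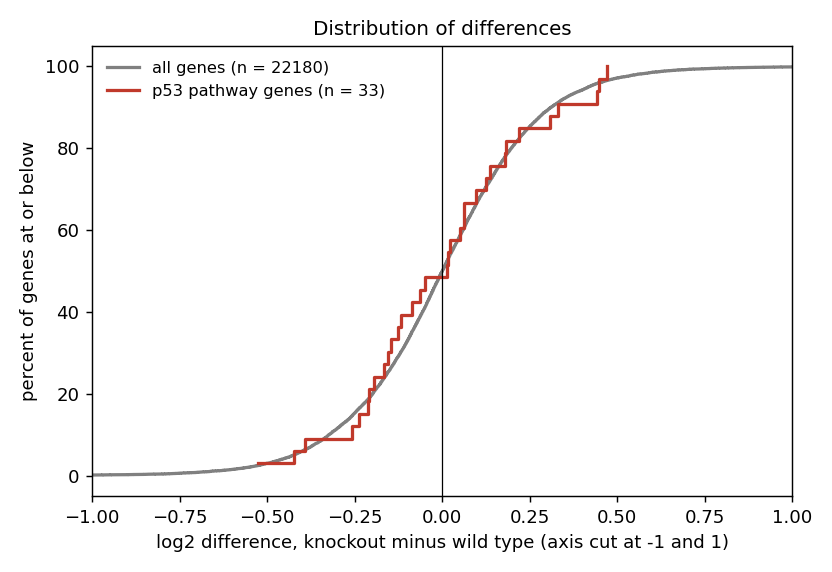
Cumulative share of genes (percent, vertical axis) at or below each log2 difference, KO minus WT (horizontal axis), for the 33 p53 pathway genes (red steps) and all 22180 genes (grey line). The red steps follow the grey line, and both cross zero near their middle, with medians of 0.01 and 0.00.

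The precision of these arrays bounds what could have gone unseen. The 95% interval of the difference lay wholly inside 1.5-fold in both directions for 16 of the 33 genes and inside 2-fold for 32 of 33. The exception was Trp53inp1, whose interval ran from -0.43 to 1.38. The median standard error of a member was 0.18. With 3 arrays in each group, an exact two-sided permutation test of 1 gene cannot give a p below 0.1.

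**Figure D2:**
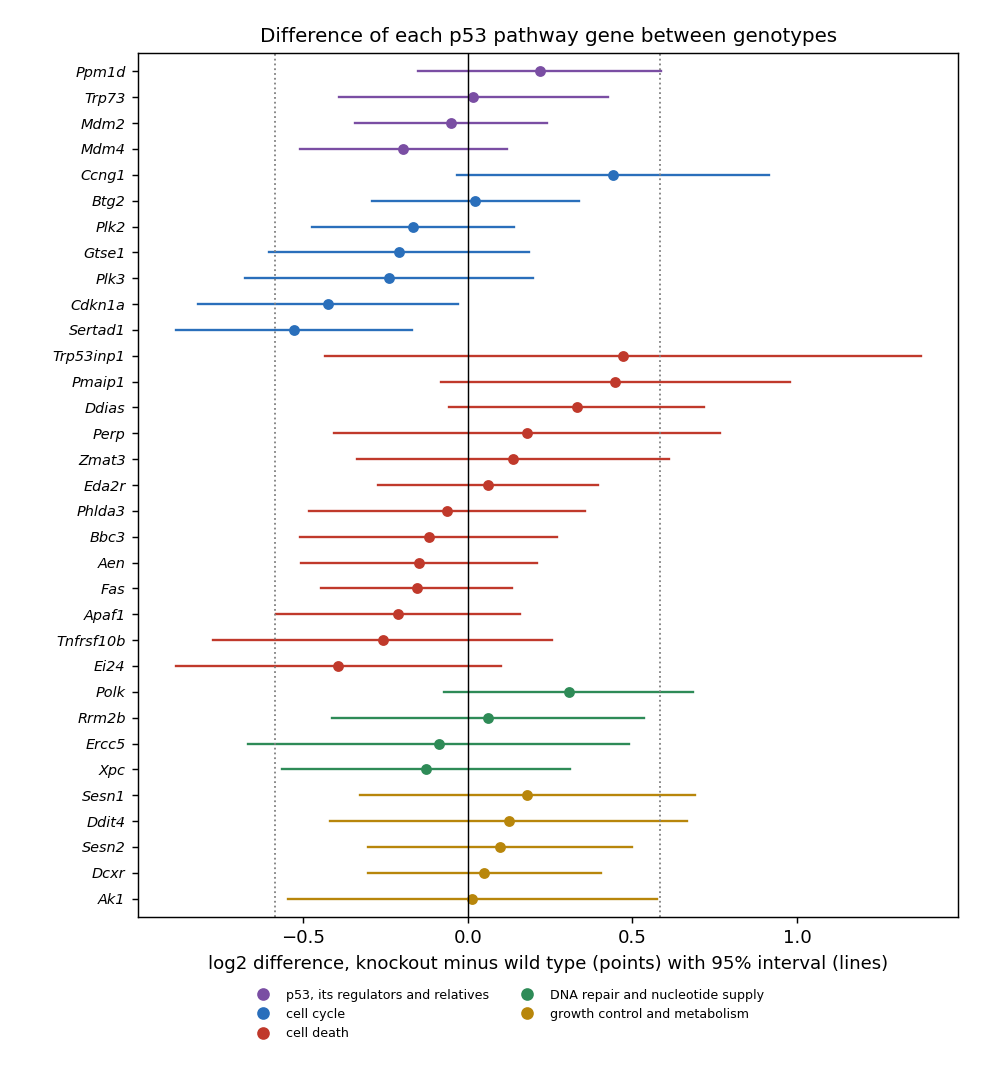
Log2 difference, KO minus WT (points), with its 95% interval (lines) for each of the 33 genes, coloured by role. Dotted lines mark 1.5-fold in either direction. No point lies beyond the dotted lines, and only the intervals of Sertad1 and Cdkn1a leave out zero.

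The genes that control p53 are the part of the list where a feedback response would be read. Mdm2, the ubiquitin ligase that is both the brake on p53 and one of its targets, read 7.43, 7.26 and 7.38 in the WT arrays and 7.35, 7.31 and 7.26 in the KO arrays. All 6 values lie within a narrow band and the groups overlap throughout. The log2 difference was -0.05 ± 0.13 (SE, n = 3 each; limma adjusted p = 0.924), with a 95% interval of -0.34 to 0.24. Mdm4, the relative of Mdm2 that masks the activating part of p53, read 7.84, 8.03 and 8.13 in the WT arrays and 7.89, 7.64 and 7.87 in the KO arrays. WT replicates 2 and 3 were above every KO array, while WT replicate 1 fell among them. Its difference was -0.20 ± 0.14 (SE, n = 3 each; limma adjusted p = 0.652), and -0.11 without KO replicate 2. Ppm1d, the phosphatase Wip1 that switches the damage response off again, had a difference of 0.22, with the highest values in the first and second KO arrays, at 6.44 and 6.32. It was 0.12 without KO replicate 1 and 0.35 without KO replicate 3. Trp73, which encodes the p53 relative p73, had 0.02.

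Among the 7 cell cycle genes, 5 were lower and 2 higher; their median difference was -0.21. Sertad1, which encodes a regulator of the cyclin-dependent kinase CDK4 and of E2F-driven transcription, read 7.30, 6.89 and 6.94 in the WT arrays and 6.61, 6.48 and 6.45 in the KO arrays. Every KO array was below every WT array. The log2 difference was -0.53 ± 0.16 (SE, n = 3 each), or 0.694 of the WT level, with an unadjusted p of 0.00866 and an adjusted p of 0.356 in limma. This gene had the largest difference of the 33 in size, and its unadjusted p stayed under 0.05 in all 13 alternative analyses, where the adjusted p ran from 0.288 to 0.645. Its promoter window held no p53 half-site.

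Cdkn1a, which encodes p21, the cyclin-dependent kinase inhibitor that carries out much of the p53 cell cycle arrest, read 9.06, 8.60 and 8.89 in the WT arrays and 8.71, 8.12 and 8.44 in the KO arrays. The groups overlap, since the first KO array lies above the second WT array. The difference was -0.42 ± 0.18 (SE, n = 3 each), or 0.746 of the WT level, with a 95% interval of -0.82 to -0.03. Its unadjusted p was 0.0380 and its adjusted p 0.468 in limma. Over the alternatives the adjusted p ran from 0.3995 to 0.722. The unadjusted p was above 0.05 when WT replicate 1 (0.130), WT replicate 3 (0.0830), KO replicate 2 (0.149) or KO replicate 3 (0.0720) was left out, and the difference came down to -0.27 without KO replicate 2. It was also above 0.05 without the intensity trend (0.0550) and with array weights (0.0643), and under 0.05 in 7 of 13 alternatives.

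Ccng1 encodes cyclin G1, which brings a phosphatase to Mdm2, and it is among the most regular of p53 targets across tissues. It read 6.90, 6.89 and 7.56 in the WT arrays and 7.64, 7.73 and 7.30 in the KO arrays. WT replicate 3 stood with the KO arrays, above KO replicate 3. The difference was 0.44 ± 0.21 (SE, n = 3 each; limma adjusted p = 0.505), with a 95% interval of -0.03 to 0.91. It was 0.66 without WT replicate 3 and 0.33 without WT replicate 1. Cdkn1a and Ccng1, whose promoter pairs are printed above, thus had differences of opposite sign and similar size. Gtse1, which restrains p53 late in the cell cycle, had -0.21, or -0.10 without WT replicate 3 and -0.11 without KO replicate 2. Polk, of the repair genes, had 0.31. Of the 4 genes with a pair, 2 were higher and 2 lower. Over the 9 genes with any half-site 4 were higher and 5 lower, with a median of -0.05, and over the 17 with a window but no half-site 8 were higher and 9 lower, with a median of -0.06.

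The other cell cycle genes had differences of -0.24 to 0.02. Plk3, a stress-responsive polo-like kinase gene, had -0.24, and -0.06 without WT replicate 1 or -0.12 without KO replicate 2. Plk2, its relative, had -0.17 ± 0.14 (SE, n = 3 each), from 7.16, 7.17 and 7.34 in the WT arrays and 7.11, 7.09 and 6.98 in the KO arrays. These groups of Plk2 do not overlap but lie close together, and the difference was -0.11 without WT replicate 3. Btg2, an antiproliferative gene that also answers growth factors directly, had 0.02, and its sign turned under quantile normalization and cyclic loess.

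**Figure D3:**
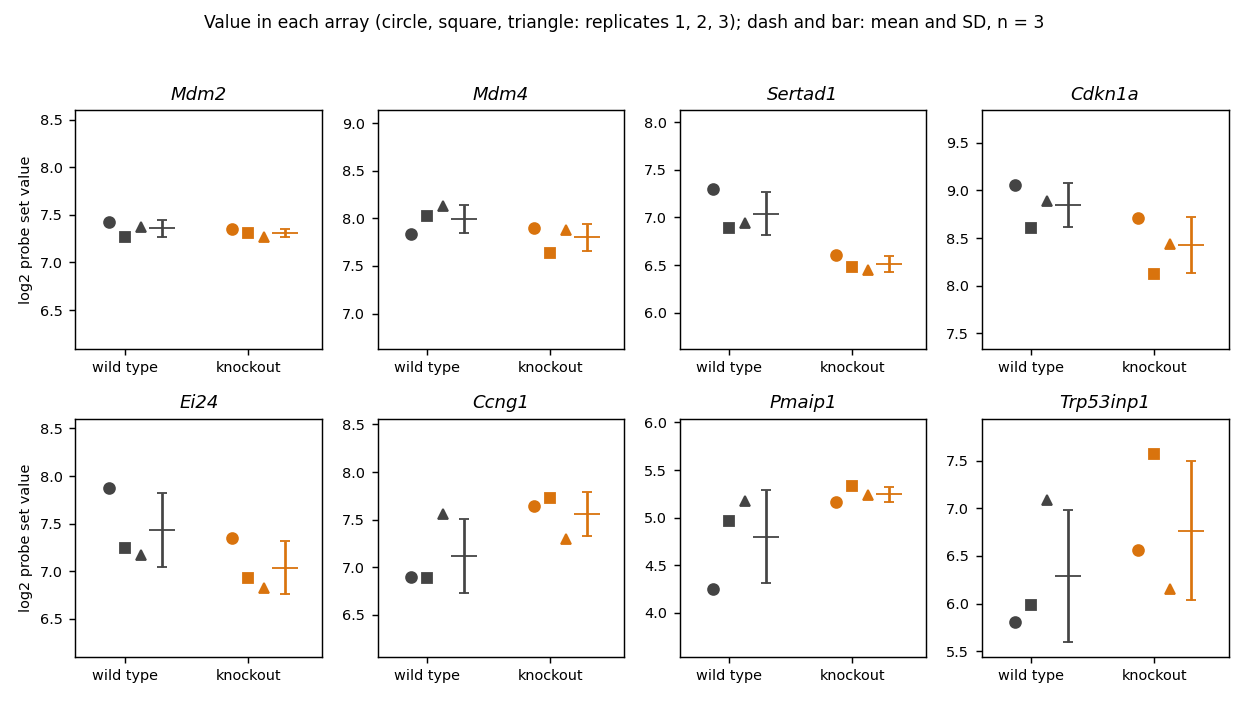
Log2 probe set value (vertical axes, each spanning the same range) in each WT array (grey) and KO array (orange) for 8 genes; circles, squares and triangles are replicates 1, 2 and 3, which are not paired, and dashes with bars are the mean and SD (n = 3). Sertad1 is the gene of these 8 whose groups do not overlap, and Trp53inp1 shows the widest spread within each genotype.

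Genes of cell death made up 13 of the 33, with 6 higher and 7 lower, a median of -0.06 and a mean of 0.02. Pmaip1 and Bbc3 encode NOXA and PUMA, the BH3-only proteins through which p53 starts mitochondrial apoptosis. Pmaip1 read 4.25, 4.97 and 5.18 in the WT arrays and 5.17, 5.33 and 5.24 in the KO arrays. Its low mean in the WT group rests on replicate 1, and replicate 3 of that group overlaps the KO arrays. The difference was 0.45 ± 0.24 (SE, n = 3 each; limma adjusted p = 0.539), and it came down to 0.17 without WT replicate 1. Bbc3 had -0.12 ± 0.17 (SE), with the KO arrays at 5.34, 5.33 and 5.38, inside the WT range of 5.23 to 5.75. The 2 genes thus gave no common direction.

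Trp53inp1, whose product helps p53 towards its cell death targets, had the largest upward difference of the 33 and also the widest spread. It read 5.81, 5.98 and 7.08 in the WT arrays and 6.56, 7.57 and 6.15 in the KO arrays. In each genotype 1 array stood far above the other two, WT replicate 3 and KO replicate 2. The difference of 0.47 ± 0.40 (SE, n = 3 each; limma adjusted p = 0.713) was smaller than the SD within either group, 0.69 for WT and 0.73 for KO. It was 0.87 without WT replicate 3 and 0.07 without KO replicate 2.

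Ei24, a p53-induced gene of the endoplasmic reticulum membrane that takes part in autophagy, read 7.88, 7.24 and 7.17 in the WT arrays and 7.35, 6.93 and 6.83 in the KO arrays. The first array of each genotype was the highest, and KO replicate 1 lies above WT replicates 2 and 3. The difference was -0.39 ± 0.22 (SE, n = 3 each; limma adjusted p = 0.564), and -0.17 without WT replicate 1.

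Ddias, which encodes a protein that protects cells with DNA damage from apoptosis, read 4.78, 4.47 and 4.86 in the WT arrays and 5.21, 4.93 and 4.97 in the KO arrays. All 3 KO arrays were higher than all 3 WT arrays, with a difference of 0.33 ± 0.17 (SE, n = 3 each; limma adjusted p = 0.534). It was 0.21 without WT replicate 2. The death receptor gene Fas had -0.16 ± 0.13 (SE), with WT arrays at 2.76 to 2.89 and KO arrays at 2.62 to 2.67. Those groups do not overlap either, but the Fas probe set lay at percentile 15.3 of the signal, where array values are compressed. Plk2, Ddias and Fas are given with their arrays because their groups did not overlap, which was seen in the values first. With Sertad1, 4 of 33 genes (12.1%) had groups that did not overlap, 1 higher and 3 lower, where 16.1% of all genes did (7.75% higher and 8.37% lower).

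The remaining death genes lay within -0.26 and 0.18. Tnfrsf10b, the mouse TRAIL receptor gene, had -0.26, and -0.093 without WT replicate 3 or -0.51 without WT replicate 2, whose value of 4.30 was the lowest of the 6. Apaf1, the apoptosome scaffold, had -0.21, and -0.12 without WT replicate 2. The nuclease gene Aen had -0.15, and -0.048 without WT replicate 3. Phlda3, which encodes a repressor of AKT, had -0.06. Eda2r, a TNF receptor family gene, had 0.06 at percentile 23.3 of the signal. Zmat3, an RNA-binding protein gene, had 0.14, and Perp, a membrane protein gene of p53-dependent death, 0.18.

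The 4 genes of DNA repair and nucleotide supply showed no common direction, with 2 higher, 2 lower, a median of -0.01 and a mean of 0.04. Polk encodes a DNA polymerase that copies past damaged bases, and it had 0.31 ± 0.17 (SE, n = 3 each; limma adjusted p = 0.558). Its KO arrays read 5.05, 5.21 and 4.83 and its WT arrays 4.75, 4.57 and 4.84, so 1 KO array lies below the highest WT array. Xpc, which recognises bulky lesions for excision repair, had -0.13. Ercc5, the nuclease that cuts beside such lesions, had -0.09, and Rrm2b, the ribonucleotide reductase subunit that p53 induces, 0.06.

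All 5 genes of growth control and metabolism were on the higher side, by 0.01 to 0.18, each by less than its own standard error. Sesn1 and Sesn2 encode sestrins, which restrain the growth kinase complex mTORC1, and they had 0.18 and 0.10. Ddit4, another restraint on mTORC1, had 0.12, from 1 KO array at 7.48 and the others at 6.65 and 6.67. Ak1, an adenylate kinase gene, had 0.01 and Dcxr, a carbonyl reductase gene, 0.05. Leaving out 1 array turned the sign of each of these 5, though it was not the same array for all of them. Whether the shared direction goes beyond the spread between arrays was not tested.

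The genes also varied among the arrays of 1 genotype, and not all in the same way. Sorted by the highest array within each genotype, the 33 genes fell into all 9 possible combinations, with 1 to 7 genes in each. WT replicate 3 with KO replicate 1 held 7 genes (Aen, Ddias, Gtse1, Mdm4, Plk2, Ppm1d and Sesn2; 21.2%, against 9.85% of all genes). Replicate 1 was the highest in both genotypes for 6 genes (Cdkn1a, Ei24, Mdm2, Phlda3, Plk3 and Sertad1; 18.2%, against 11.1% of all genes). WT replicate 3 with KO replicate 2 held another 6 (Ccng1, Pmaip1, Polk, Sesn1, Trp53inp1 and Trp73; 18.2%, against 12.3% of all genes). The other 6 combinations held 1 to 4 genes. The largest downward differences, Sertad1, Cdkn1a and Ei24, were in the second of these combinations and the largest upward ones, Trp53inp1, Pmaip1 and Ccng1, in the third. These combinations were read from the values, and no test was made on them. The p53 targets therefore did not rank the arrays of a genotype in 1 common order.

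**Figure D4:**
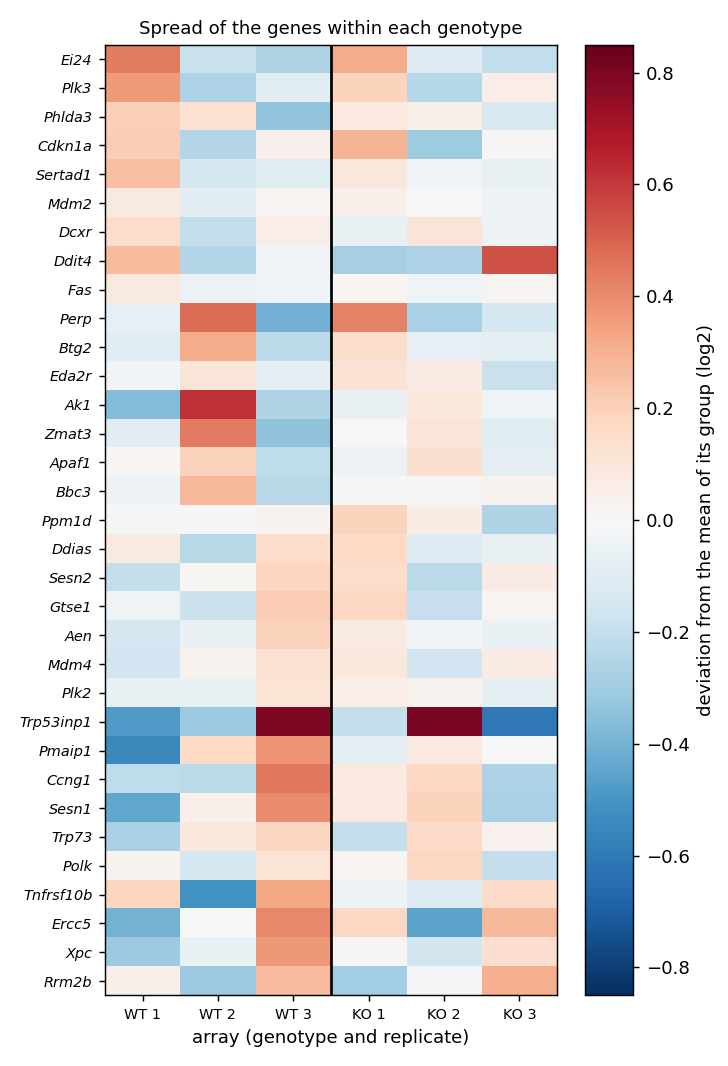
Deviation of each of the 33 genes (rows) from the mean of its own genotype, in log2 units (colour), for each array (columns; WT left and KO right of the black line). Rows are ordered by the array that was highest in each genotype. The upper rows, with Ei24, Plk3 and Cdkn1a, are high in replicate 1 of both genotypes, and the rows of Trp53inp1, Ccng1 and Sesn1 are high in WT replicate 3 and KO replicate 2.

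Markers of other cells also differed between the same arrays. Of 15 mature neutrophil genes, 13 were lower and 2 higher in the KO arrays, and their median difference was -0.17. The mean log2 value over that list was 7.61, 7.39 and 7.38 in the WT arrays and 7.35, 7.09 and 7.05 in the KO arrays, with no overlap and with replicate 1 highest in each genotype, as in Sertad1, Cdkn1a and Ei24. All 15 had signals above percentile 25 of all genes, and 4 of 15 (26.7%, against 10.3% of all genes) had an unadjusted p under 0.05, all lower (Mmp8, Cd177, Il1r2 and Ifitm6). The mean over 11 B and plasma cell genes was 5.30, 5.51 and 6.27 in the WT arrays and 5.54, 6.02 and 6.03 in the KO arrays, with WT replicate 3 and KO replicate 3 the highest. Ccng1, Pmaip1 and Trp53inp1 share that WT array but were highest in KO replicate 2. Of those 11 genes 8 were higher and 3 lower, and 0 of them lay below percentile 25. The mast cell, basophil and eosinophil genes (9 measured, 6 lower) ranged from 5.90 to 6.25 over the WT arrays and from 5.43 to 6.27 over the KO arrays. Of these 9, Ms4a2, Epx and Prg2 (33.3%) were lower at an unadjusted p under 0.05, with Prg2 at -1.75. Prg2 read 9.62, 8.87 and 9.23 in the WT arrays and 6.44, 9.65 and 6.38 in the KO arrays. KO replicate 2 was thus its highest array. Epx in KO replicate 2, at 5.80, also lay inside its WT range of 5.48 to 6.13, while the groups of Ms4a2 did not overlap. The macrophage genes (11 measured, 4 lower) ranged from 4.42 to 4.80 and from 4.42 to 4.61, with 1 of them, Cd5l, below percentile 25. Their highest arrays were WT replicate 3 and KO replicate 2, as in Ccng1, Pmaip1 and Trp53inp1. At an unadjusted p under 0.05 were 4 of 11 (36.4%), C1qa on the higher side and C1qb, Vcam1 and Cd5l on the lower. The T and NK cell genes (12 measured, 7 lower) ranged from 4.34 to 4.62 and from 4.48 to 4.60, and the erythroid genes (7 measured, 6 lower) from 5.94 to 6.33 and from 6.03 to 6.13. Highest were WT replicate 1 and KO replicate 2 for the mast cell list and WT replicate 2 and KO replicate 3 for the T and NK list. For the erythroid list these were WT replicate 3 and KO replicate 3. Sertad1, Cdkn1a, Ei24, Ccng1, Pmaip1 and Trp53inp1 had none of these combinations. In the B and plasma cell, T and NK cell and erythroid lists 0 genes had an unadjusted p under 0.05. The part of other cells in the p53 gene values was not tested. In sorted bulk RNA, fewer cells of a type and less RNA per cell cannot be told apart. Of 9 immediate early genes, a list chosen after the values were seen, 6 were lower and 3 higher. Their mean ran from 10.52 to 10.75 in the WT arrays and from 10.52 to 10.66 in the KO arrays. At an unadjusted p under 0.05 were 3 of 9 (33.3%, against 10.3% of all genes). Junb, at -0.26 with groups that did not overlap, and Atf3, at -0.39, were lower, and Dusp1, at 0.26, was higher.

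In the wider p53 pathway 0 genes passed the adjusted threshold in limma either. Of 36 measured regulators outside the list, 22 were higher and 14 lower, with a median of 0.04. Of these 36, 2 (5.56%, against 10.3% of all genes) had an unadjusted p under 0.05. Both were higher, as were 4.74% of all genes at that p. Cop1, which encodes another ubiquitin ligase for p53, measured 7.20 in the WT and 7.74 in the KO arrays, a difference of 0.54 ± 0.16 (SE, n = 3 each; limma adjusted p = 0.356), with no overlap between groups. Groups without overlap were found for 6 of the 36 regulators (16.7%), close to the 16.1% of all genes. Chek2, the checkpoint kinase that phosphorylates p53 after DNA breaks, had 0.40 ± 0.18 (SE, n = 3 each; limma adjusted p = 0.487). Its unadjusted p in limma was 0.0495, and its groups overlapped. The damage kinase genes Atm and Atr had 0.12 and 0.19, and Trp63 had -0.00.

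Of 48 further measured p53 targets, 26 were higher and 22 lower, with a median of 0.05. An unadjusted p under 0.05 was found for 4 higher genes and 1 lower gene, together 10.4%, close to the share over all genes. The higher 4 were Bloc1s2, a lysosome positioning gene, at 0.49, Steap3, a metalloreductase gene, at 0.52, Casp9, the initiator caspase that Apaf1 activates, at 0.38, and Casp1, the inflammatory caspase, at 0.33. The lower gene was Foxo3, a transcription factor that preserves stem cells, at -0.40. Their adjusted p in limma ran from 0.409 for Bloc1s2 to 0.487 for Casp1, so none passed. Cell cycle genes that p53 represses through p21 and the DREAM complex would be read in the opposite sense. Of 28 measured, 16 were higher and 12 lower, with a median of 0.02, and 1 (3.57%, against 10.3% of all genes) had an unadjusted p under 0.05. This was Ccna2, the cyclin A2 gene, at 0.40 ± 0.14 (SE, n = 3 each; limma adjusted p = 0.405).

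For the series as a whole, arrays correlated across genes at 0.985 to 0.986 within KO, 0.976 to 0.979 within WT and 0.975 to 0.983 between the genotypes. The Tifab probe set read 4.99 to 5.53 in the WT and 5.12 to 5.26 in the KO arrays (difference -0.10 ± 0.18, SE, n = 3 each; limma adjusted p = 0.885), so it gives no check on the genotype labels, on which every direction above rests. All 10 measured LSK and stem cell markers, Kit, Cd34 and Flt3 among them, had signals above the median of all genes. So had 13 of the 15 neutrophil genes, and signals of different probe sets give no measure of purity. Of the 10 LSK and stem cell markers, 5 were higher and 5 lower in the KO arrays, with a median difference of -0.03. An unadjusted p under 0.05 in limma was found for 2 of these 10, against 10.3% of all genes, and neither passed the adjusted threshold. Meis1 was higher, at 0.39, and Hlf was lower, at -0.33. These 2 of the 10 were also those with groups that did not overlap, against 16.1% of all genes. Ly6a, the gene of Sca1, was not analysed here. Differences also depended on signal, with a median of -0.17 in the dimmest of 10 equal bins of genes and 0.06 in bins 5 and 6. Of the 33 genes 27 lay above the median signal. After cyclic loess, which is meant to remove such a dependence, the median of the 33 was -0.06 beside 0.01 for all genes. Whether cyclic loess did so here was not checked. After quantile normalization the median of the 33 was -0.06 beside 0.03 for all genes. Without dim genes the median of the members left was 0.01 beside 0.04 for all genes left.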

How the data were processed

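The authors deposited 1 table of log2 values, 41345 probe sets by 6 arrays, made with Affymetrix Expression Console per the submitters' processing notes. The sources used here do not state its version, summary method, normalization or genome build. Array medians agreed closely, so no further scaling was applied. The platform annotation supplied the names: 23521 had 1 symbol, 1814 had several and were left out, and 16010 were unnamed. Of a gene's probe sets, the brightest on average stood for it, which left 22180 genes.

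Genotypes were compared with limma 3.58.1 in R 4.3.3 (lmFit, eBayes with an intensity trend, genotype only, two-sided), with Benjamini-Hochberg adjustment over all genes and a threshold of 0.05. Intervals are 95% intervals of the moderated test. The number of arrays limits the precision. The fit and the motif search were tested on simulated data. The members and lists were chosen with earlier results of these data known, so no p was adjusted over the list alone. Values in every array are given for Mdm2, Mdm4 and Cdkn1a (Trp53 was to be the fourth), for members with an unadjusted p under 0.05 and for the 3 largest differences of group means in each direction. Other members have their log2 difference, and where array values of these are printed (Plk2, Ddias, Fas, Polk, Bbc3, Ppm1d, Ddit4 and Tnfrsf10b) they were chosen after the values were seen. Outside the list, genes of the p53 lists with an unadjusted p under 0.05 are named. Atm, Atr and Trp63 are named as well, outside that rule. Promoters are RefSeq's, of GRCm38.p6. Replicate numbers did not pair the arrays. Alternatives were no intensity trend, array weights, quantile normalization, cyclic loess, dropping dim genes (mean signal below percentile 40), averaging over probe sets, the replicate block and each array left out in turn.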

Additional observations from a re-analysis of the deposited data

How the results depend on the processing

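Over 13 alternatives, none of the 33 genes passed the adjusted threshold (lowest adjusted p 0.238), and 19 kept the sign of their difference in every one run while 14 did not. Fas and Eda2r were not run without dim genes, which removes them; Fas had -0.057 after quantile normalization and -0.067 after cyclic loess. The count of members at an unadjusted p under 0.05, 2 as reported, was 1 (Sertad1) without the intensity trend and 1 with array weights. With 1 array left out it ran from 1 to 4: 1 without WT replicate 1 or KO replicate 2, and 4 (Ccng1, Pmaip1, Sertad1 and Trp53inp1) without WT replicate 3. The count over all genes fell from 2274 to 1218 without dim genes, where fewer genes were tested. With 1 array left out, 0 to 1 genes passed the adjusted threshold: Iglv1 without WT replicate 3 and Prg2 without KO replicate 2. The median difference of the members ran from -0.06 (cyclic loess) to 0.01 over the alternatives, beside 0.01 as reported. It was negative with array weights, quantile normalization, cyclic loess and each array left out in turn. These medians were smaller in size than 0.11, the SD within genotypes of the median member value of an array. That SD is a spread of levels and not of a median of differences. Signs turned in small differences. Array weights and cyclic loess gave -0.022 and -0.024 for Trp73 and -0.025 and -0.026 for Ak1, and quantile normalization and cyclic loess -0.058 and -0.062 for Btg2. The cause was not tested. With 1 array left out the differences ran from -0.12 to 0.12 for Trp73, -0.17 to 0.32 for Ak1, -0.090 to 0.18 for Btg2, -0.23 to 0.040 for Phlda3, -0.041 to 0.38 for Sesn1, -0.0035 to 0.21 for Sesn2, -0.24 to 0.023 for Bbc3, -0.092 to 0.21 for Rrm2b, -0.15 to 0.27 for Ddit4, -0.055 to 0.13 for Dcxr, -0.032 to 0.42 for Perp, -0.033 to 0.36 for Zmat3, -0.28 to 0.057 for Xpc and -0.29 to 0.14 for Ercc5. With the replicate block 3 members (Cdkn1a, Ei24 and Sertad1) and 2119 of all genes had an unadjusted p under 0.05. Deviations of arrays with the same number correlated at 0.02, -0.03 and -0.09 across genes, so the replicate numbers do not pair the arrays, and not every array correlated best with its own number. Signal over background may limit the probe sets of Fas and Eda2r, the 2 members under the 40th percentile, but background was not measured here.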
